A study of Capra hircus with 6 samples.

Results

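The 37 genes described here are markers and regulators of white blood cells, in 4 classes: 9 myeloid genes, 5 B cell genes, 19 genes of T and natural killer (NK) cells, and 4 genes that act in more than 1 of these lineages. Accessible chromatin was compared by ATAC-seq, in which the Tn5 transposase tags open DNA, between goat mammary epithelial cells of the dry period (3 libraries) and of the lactation period (3 libraries). Each library was made from 50000 cells of mammary gland, and the labels name no strain, age or agent for either group. The deposited table lists 30714 regions at a p under 0.001, each with a fold change, a p and a false discovery rate (FDR), and values of single libraries were not analysed here. A region was taken as lying at a gene when its centre was inside the gene or within 50000 bp of one of its ends. By that rule 121 of the 30714 listed regions lay at 1 or more of the 35 members that could be placed on the goat genome. *CD163* and *ZAP70* matched no symbol in the gene table and have no values below.

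The table holds 2 sets of regions with opposite direction, 22884 in set 1 and 7830 in set 2. No label or header ties a set to a period. Every direction is therefore given by set, and a fold change is always in the direction of its own set. Depth per library is unknown, and the sources used here do not say how the epithelial cells were isolated. No label names separate goats for the replicates, so the authors' p-values may measure technical spread only. A change in the share of immune cells among the nuclei and a change in accessibility within those cells cannot be told apart in such bulk libraries.

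Blood lineages are set by a small group of transcription factors. PU.1 (*SPI1*) and IRF8 direct macrophage and dendritic cell fates, EBF1 and PAX5 direct B cells, and TCF7, LEF1, BCL11B, RUNX3, T-bet (*TBX21*) and EOMES act in T and NK cells. The remaining members encode the receptors and signalling proteins by which these cells are recognised, such as the T cell receptor chains of the CD3 complex and the B cell receptor chains CD79A and CD79B. The mammary gland holds macrophages, T cells and B lineage cells beside its epithelium, and their numbers are known to shift between involution and lactation. Some members are also known in other cells: *CD68* encodes a lysosomal protein, *EBF1* acts in fat and stromal cells, *MRC1* is made by some endothelial cells, and *LEF1*, *TCF7*, *RUNX3* and *BCL11B* act in epithelium or mesenchyme.

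At an FDR under 0.05, 41 of the 121 regions were called, 36 in set 1 and 5 in set 2. The called share was 33.9% of the listed regions at these genes, against 27.8% over the whole table. Of the 35 placed members, 30 (85.7%) had a listed region, against 79.7% of all 19063 protein-coding genes on the numbered chromosomes. A listed set 2 region lay at 13 members (37.1%, against 37.6%). A called region lay at 16 members (45.7%), against 51.4% of all protein-coding genes. For set 1 alone the count was 14 members (40.0%, against 48.9%), and for set 2 alone it was 4 members (11.4%, against 5.06%). The 4 with a called set 2 region were *SPI1*, *CSF3R*, *MS4A1* and *EBF1*, and *SPI1* and *EBF1* had called regions of both sets. These shares stand beside the background as descriptions, and no test of the list was made.

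Set 1 regions were mostly nearer to a neighbouring protein-coding gene: a member was the nearest gene for 35 of 100 (35.0%). In set 2 a member was the nearest gene for 13 of 21 (61.9%), and 8 of 21 (38.1%) were inside a member, against 24 of 100 in set 1. Of the 13, 3 were at *EBF1*. The whole table has a like split: over all pairs of a protein-coding gene and a listed region in its window, the gene was the nearest in 32.2% of set 1 pairs and 53.0% of set 2 pairs, and held the region inside it in 18.9% and 35.3%. Counted as pairs, the members had 33.7% and 61.9% nearest, and 23.1% and 38.1% inside. No test was made of these shares. Among the 48 regions nearest to a member, 18 were called (37.5%, against 27.8% over the whole table). They lay at 12 of 35 members (34.3%, against 25.8% of all protein-coding genes). Set 1 gave 14 of the 18 regions, at *CD68*, *CSF1R*, *IRF8*, *CD79A*, *EBF1*, *CD8A*, *LCK*, *LEF1*, *RUNX3* and *IKZF3* (10 of 35 members, 28.6%, against 24.1% of all protein-coding genes). Set 2 gave 4, at *SPI1*, *MS4A1* and *EBF1* (3 of 35 members, 8.57%, against 2.62%).

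**Figure D1:**
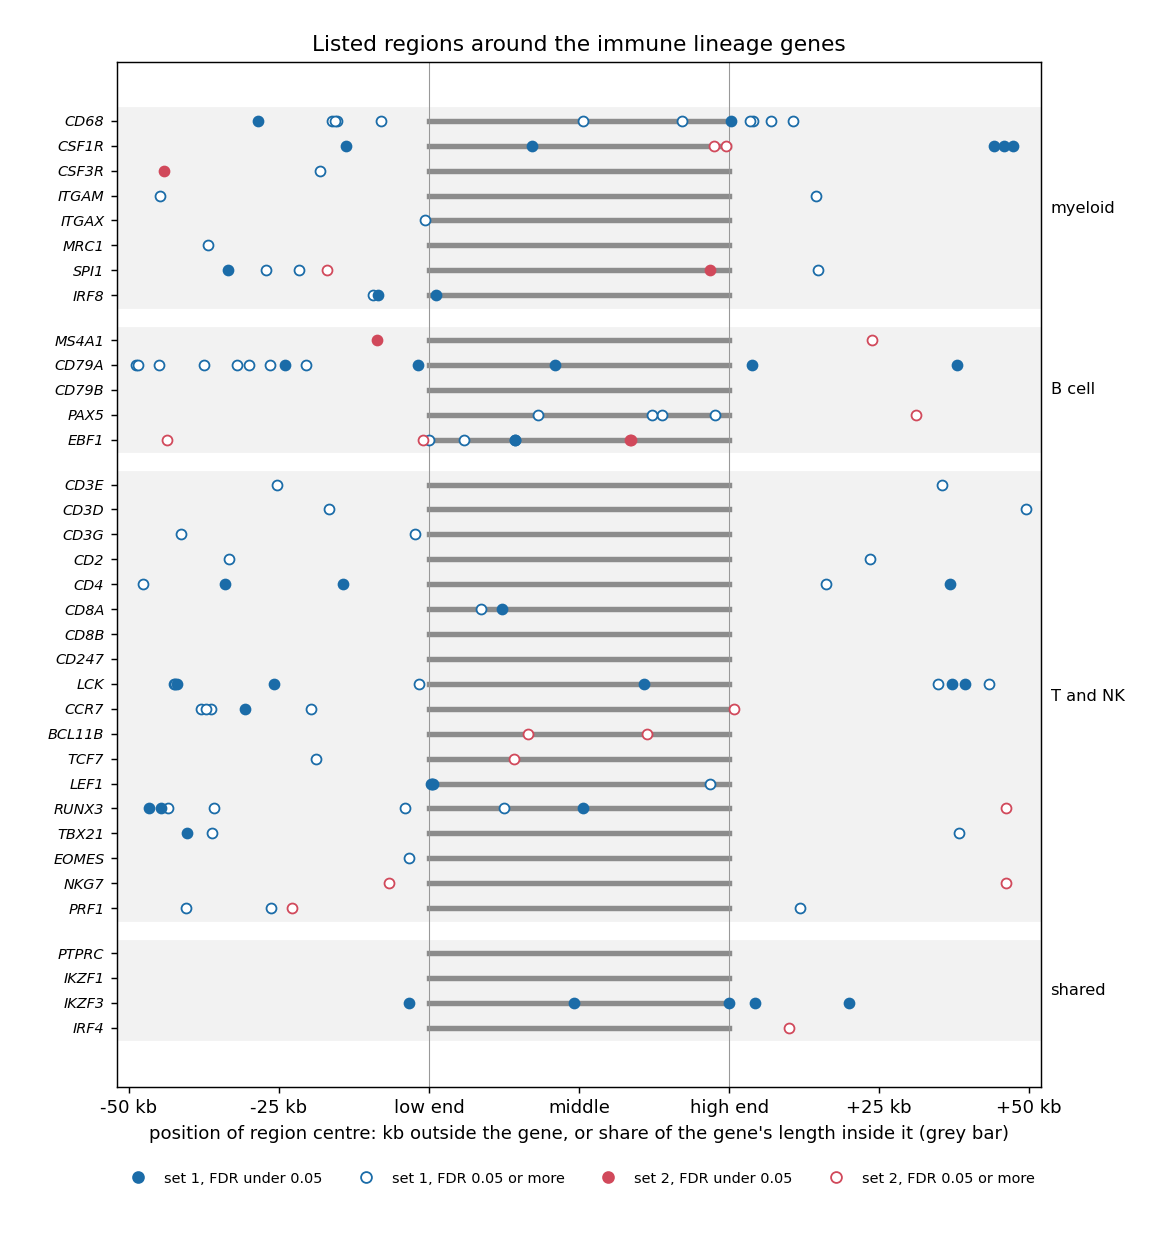
Position of each listed region around the 35 placed members, in kb outside the gene and as a share of the gene's length inside it (grey bar; low and high end refer to the coordinate, since strand was not used). Filled points are regions at an FDR under 0.05, open points the rest, blue set 1 and red set 2; the called set 2 points are at *SPI1*, *CSF3R*, *MS4A1* and *EBF1*, where 2 points overlap, and *PTPRC*, *IKZF1*, *CD247*, *CD8B* and *CD79B* have no point.

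Among the myeloid regulators, *SPI1* and *IRF8* had their most significant regions in opposite sets. The *SPI1* region lies inside the gene, 1074 bp from an end, on chromosome 15 at 5786401 to 5787200, and its set 2 fold change was 4.47 per the authors' deposited table (p = 2.02e-09, FDR = 0.000173). The centre of that region is also less than 3000 bp from *MYBPC3*. A second set 2 region, 16988 bp outside *SPI1*, had a fold change of 6.69 per the authors' deposited table but an FDR of 0.475. All 4 set 1 regions at *SPI1* were nearest to other genes, the called one (5737401 to 5737700, fold change of 2.17 and FDR of 0.0143 per the authors' deposited table) to the proteasome subunit gene *PSMC3*.

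All 3 regions at *IRF8*, on chromosome 18, were in set 1 and had *IRF8* as the nearest gene. The region 8472 bp outside it, at 13234501 to 13235300, had the largest set 1 fold change of all 100 set 1 regions at the members, 5.68 per the authors' deposited table (p = 1.63e-06, FDR = 0.00417). A second called region lies inside *IRF8*, 478 bp from an end (13243601 to 13244100), with a fold change of 5.24 per the authors' deposited table (FDR = 0.0435). The third had 3.09 per the authors' deposited table (FDR = 0.176).

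The receptor for colony stimulating factor 1, *CSF1R*, which macrophages need to survive, had 5 called regions on chromosome 7, all in set 1. For 2 of them *CSF1R* was the nearest gene: one 13878 bp outside it (48991601 to 48992100) with a fold change of 2.04 per the authors' deposited table (p = 4.42e-07, FDR = 0.00168), and one inside it (49016401 to 49016700) with 2.92 (FDR = 0.0474). The other 3 lie inside the neighbour *HMGXB3*, with fold changes of 1.64 to 3.18 per the authors' deposited table. Among them is the region with the smallest p at this locus (49081101 to 49081700, fold change of 3.18, p = 3.56e-07 and FDR = 0.00144 per the authors' deposited table). Near the other end of *CSF1R*, in a stretch that the gene table gives to *CSF1R* and *HMGXB3* both, 2 set 2 regions had fold changes of 2.56 and 2.27 per the authors' deposited table, with FDRs of 0.662 and 0.671.

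*CD68* had 12 listed regions, all in set 1, in a dense stretch of chromosome 19 where 9 of them were nearest to other genes. The most significant lies 264 bp outside *CD68* (27053501 to 27054000), with a fold change of 2.02 per the authors' deposited table (p = 9.45e-07, FDR = 0.00287). The granulocyte receptor *CSF3R* had 1 called region, in set 2, at 11350101 to 11350500 on chromosome 3, with a fold change of 2.48 per the authors' deposited table (p = 2.58e-06, FDR = 0.0299). That region is 44108 bp from *CSF3R* and nearest to *OSCP1*, so it stands at the far edge of the window.

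The integrin chains *ITGAM* and *ITGAX*, which mark macrophages, granulocytes and dendritic cells, share a set 1 region 716 bp outside *ITGAX*, with a fold change of 4.31 per the authors' deposited table (FDR = 0.111). *ITGAM* had 1 further listed region (3.54 per the authors' deposited table, FDR = 0.0709). The mannose receptor *MRC1* had 1 region in set 1, 36782 bp outside it (3.82 per the authors' deposited table, FDR = 0.264). None of these 3 genes therefore had a called region.

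B cell genes held 3 of the 5 called set 2 regions. *MS4A1*, which encodes the B cell surface protein CD20, had 2 listed regions, both in set 2. The called one lies 8700 bp outside the gene on chromosome 15 at 227301 to 227800, with a fold change of 3.18 per the authors' deposited table (p = 1.45e-08, FDR = 0.000741), and *MS4A1* is its nearest gene. The other, nearest to an unnamed neighbour, had a fold change of 3.73 per the authors' deposited table (FDR = 0.634).

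*EBF1*, a pioneer factor of the B lineage, is the longest member, and its 8 listed regions were split evenly, 4 in each set. A pair of called set 2 regions lies close together deep inside the gene on chromosome 7. The first, at 40159801 to 40160400, had a fold change of 3.77 per the authors' deposited table (p = 1.23e-08, FDR = 0.000645), and the second, at 40161101 to 40161500, had 5.23 (FDR = 0.0228). Elsewhere inside *EBF1*, at 40002701 to 40003000, a set 1 region had a fold change of 3.97 per the authors' deposited table (FDR = 0.0231). Close to the lower end of the gene, a region of each set was listed: set 1 at 344 bp inside (fold change of 1.81 per the authors' deposited table, FDR = 0.219) and set 2 at 1006 bp outside (1.27, FDR = 0.796).

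*PAX5*, which keeps B cells committed to their lineage, had 4 set 1 regions inside the gene, with fold changes of 2.12 to 4.47 per the authors' deposited table, and none was called (FDR of 0.0769 to 0.186). A set 2 region outside it, nearest to *ZCCHC7*, had 1.22 per the authors' deposited table (FDR = 0.784). The receptor chain *CD79A* had 13 listed regions, more than any other member and all in set 1, of which 8 were nearest to *ARHGEF1* and 1 to *CD79A*. That one lies inside *CD79A* on chromosome 18 at 52245901 to 52246400, with a fold change of 1.77 per the authors' deposited table (p = 2.09e-05, FDR = 0.0244). The smallest p at this locus belonged to a region nearest to *RPS19*, at 52251801 to 52252500, with 1.74 per the authors' deposited table (p = 1.65e-05, FDR = 0.0208). The partner chain gene *CD79B* had no listed region.

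Of the T and NK genes, 7 of 18 placed members had a called region, against 51.4% of all protein-coding genes. All 15 called regions were in set 1, and 48.9% of all protein-coding genes had a called set 1 region. A count of 0 of 15 allows a set 2 share of up to 20.0% (3 counts, counting error only), and 8.46% of the called regions of the whole table were in set 2. For most of these regions another gene was the nearest: 4 of the 15 were nearest to a T or NK member, 1 each at *CD8A*, *LCK*, *LEF1* and *RUNX3*.

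Receptor genes of T cells differed in what surrounded them. *CD8A*, the co-receptor of killer T cells, had 2 regions inside the gene on chromosome 11, and the called one (47729401 to 47729800) had a fold change of 1.85 per the authors' deposited table (p = 9.04e-08, FDR = 0.000518). The neighbouring *CD8B* had no listed region within its window. *CD4*, the co-receptor of helper T cells, had 3 called set 1 regions, with fold changes of 1.63 to 2.48 per the authors' deposited table, all outside the gene and nearest to *CDCA3*, *P3H3* and *MLF2*. The first of these, on chromosome 5 at 102522501 to 102522800, had the smallest p (fold change of 1.67, p = 7.72e-08 and FDR = 0.000461 per the authors' deposited table).

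The CD3 chain genes *CD3E*, *CD3D* and *CD3G* lie side by side on chromosome 15 and share 3 listed regions between them, all in set 1 and none inside a CD3 gene. Their fold changes were 1.54 to 2.20 per the authors' deposited table, with FDRs of 0.138 to 0.253, so none was called. *CD247*, the zeta chain of the same receptor, had no listed region. The adhesion receptor *CD2* had 2 set 1 regions, both outside the gene, with fold changes of 3.25 and 2.05 per the authors' deposited table (FDRs of 0.169 and 0.216).

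*LCK*, the kinase that starts T cell receptor signalling, had 10 listed regions on chromosome 2, all in set 1, of which 5 were called. The 1 region inside the gene (14431501 to 14431700) had a fold change of 1.59 per the authors' deposited table (p = 2.55e-05, FDR = 0.0279). The most significant at this locus, 25924 bp away at 14390901 to 14391400 and nearest to *TMEM234*, had 3.72 per the authors' deposited table (p = 1.31e-06, FDR = 0.00359). For the lymph node homing receptor *CCR7* the called set 1 region, on chromosome 19 at 40393901 to 40394200, was nearest to *TNS4* (3.54 per the authors' deposited table, p = 4.89e-05, FDR = 0.0427). The region closest to *CCR7* itself, 876 bp outside it, was in set 2, with a fold change of 4.55 per the authors' deposited table and an FDR of 0.422.

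Among the T cell factors, *RUNX3*, which fixes the killer T cell fate, had 8 listed regions on chromosome 2. The region inside the gene that was called, at 7917501 to 7918000, had a set 1 fold change of 1.76 per the authors' deposited table (p = 2.39e-05, FDR = 0.0267). The other 2 called regions in its window are nearest to *CLIC4*. That with the smallest p, at 7839301 to 7839800, had 2.22 per the authors' deposited table (p = 5.71e-09, FDR = 6.45e-05), and the other had 4.04. The only set 2 region at *RUNX3*, outside the gene, had 3.38 per the authors' deposited table (FDR = 0.756). *LEF1* had 4 set 1 regions inside the gene on chromosome 6, 3 of them between 644 and 1594 bp from the same end. Of those, the region at 17399401 to 17399600 was called with an FDR just under the threshold, at a fold change of 2.56 per the authors' deposited table (p = 6.07e-05, FDR = 0.0493).

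*BCL11B*, which commits progenitors to the T lineage, had 2 listed regions, both inside the gene and both in set 2. Their fold changes were 2.91 and 3.86 per the authors' deposited table, with FDRs of 0.579 and 0.811. *TCF7* had a set 2 region inside the gene with a fold change of 1.41 per the authors' deposited table (FDR = 0.681) and a set 1 region outside it, nearest to *SKP1* (3.14, FDR = 0.180). *TBX21* had 1 called set 1 region, 40386 bp away on chromosome 19 at 38306401 to 38306700 and nearest to *OSBPL7*, with a fold change of 1.91 per the authors' deposited table (p = 1.44e-07, FDR = 0.000733). *EOMES* had 1 listed region, in set 1, 3308 bp outside it (1.83 per the authors' deposited table, FDR = 0.243).

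Neither of the 2 members of cell killing had a called region. *NKG7*, a granule membrane protein, had 2 set 2 regions in its window, with fold changes of 3.81 and 4.27 per the authors' deposited table (FDRs of 0.528 and 0.651), neither nearest to it. Perforin, *PRF1*, had 3 set 1 regions and 1 set 2 region, all nearest to *ADAMTS14* or *PALD1*, with FDRs of 0.194 to 0.523 per the authors' deposited table. The set 2 region had the smallest p of the 4 (fold change of 3.46 per the authors' deposited table).

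Of the 4 shared genes, 1 had called regions. *IKZF3*, which encodes the lymphoid factor Aiolos, had 5 listed regions on chromosome 19, and all 5 were called in set 1. For 3 of them *IKZF3* was the nearest gene: the region 32 bp inside one end (39855201 to 39855900) had a fold change of 1.92 per the authors' deposited table (p = 2.71e-07, FDR = 0.00117). The region deeper inside (39807901 to 39808500) had 2.69 per the authors' deposited table (FDR = 0.0324), and the one beyond the other end (39760701 to 39761000) had 1.63 (FDR = 0.00433). The remaining pair, nearest to *ZPBP2*, had fold changes of 2.30 and 4.22 per the authors' deposited table.

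The related *IKZF1*, which encodes Ikaros, and *PTPRC*, which encodes the common leukocyte antigen CD45, had no listed region in windows of 198 and 229 kb. Of all protein-coding genes with windows at least as long, 14.1% and 13.8% had none either. *IRF4*, a factor of plasma cells and activated T cells, had 1 listed region, in set 2, 9980 bp outside it on chromosome 23 at 214201 to 214700. Its fold change was 2.51 per the authors' deposited table, and its p of 1.95e-05 came with an FDR of 0.109. The FDR is stricter in set 2: the largest p that passed 0.05 was 6.21e-05 in set 1 and 5.63e-06 in set 2. A set 1 region with the p of the *IRF4* region would have been called.

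**Figure D2:**
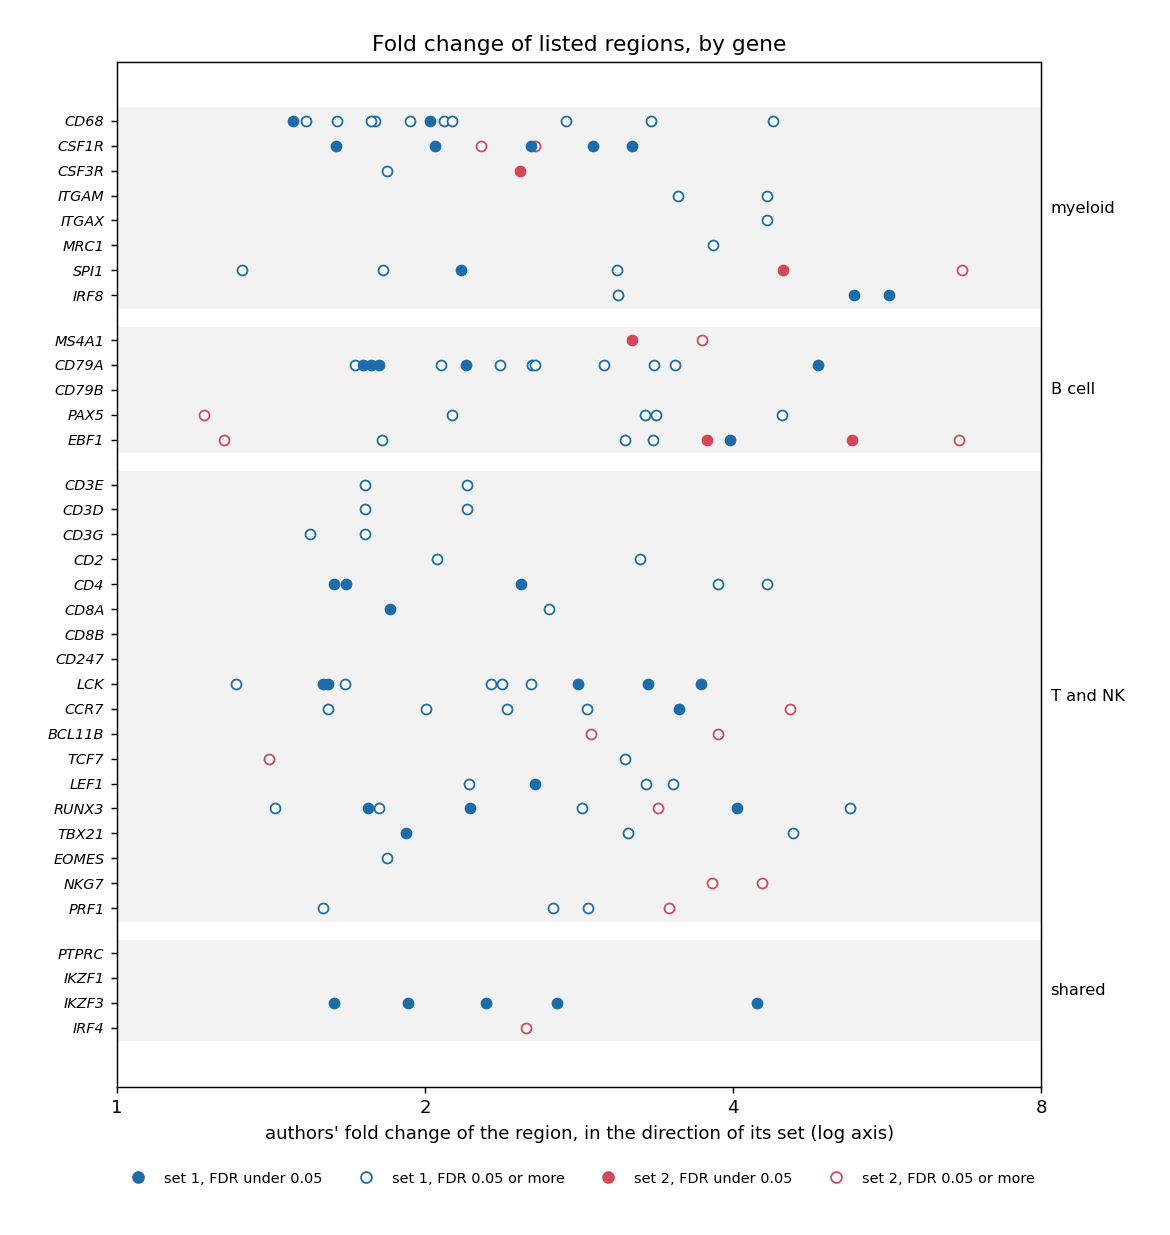
The authors' fold change of each listed region (log axis), by member, in the direction of the region's set; a region in the windows of several members is drawn at each. Set 1 points (blue) run from 1.31 to 5.68 and set 2 points (red) from 1.22 to 6.69, and filled points are those at an FDR under 0.05.

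The fold changes at the members were close to those of the whole table. The median was 2.39 for the 100 set 1 regions and 3.46 for the 21 set 2 regions per the authors' deposited table, against 2.39 and 3.59 over all listed regions. A fold change of 4 or more was reached by 11 of 100 set 1 regions and 6 of 21 set 2 regions. Listed regions were denser at the members, at 24.5 per Mb of window, than in the windows of all protein-coding genes, at 16.8 per Mb. By class the density was 33.7 per Mb for myeloid genes, 25.2 for B cell genes, 25.5 for T and NK genes and 8.18 for the shared genes. The myeloid value rests in part on *CD68*, with 12 of the 33 myeloid regions in 102 kb, and the B cell value on *CD79A*, with 13 of 28. In set 2 alone the density was 4.25 per Mb at all members, against 3.93 in the windows of all protein-coding genes. Another gene was the nearest for 73 of the 121 regions.

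Setting the classes side by side, the set 2 share of listed regions was 15.2% for myeloid genes (5 of 33, 95% Wilson interval 6.65% to 30.9%), 25.0% for B cell genes (7 of 28, 12.7% to 43.4%) and 14.8% for T and NK genes (8 of 54, 7.70% to 26.6%). It was 16.7% for the shared genes (1 of 6, 3.00% to 56.4%). The intervals cover counting error only, and they overlap. Of all 30714 listed regions, 25.5% were in set 2, and of those in the windows of all protein-coding genes 23.4% were. Over all members the share was 17.4% (21 of 121, 11.6% to 25.1%). That interval includes the 23.4% and ends just below the 25.5%. With regions nearest to a member only, the shares moved together: 25.0% for myeloid genes (3 of 12), 30.8% for B cell genes (4 of 13) and 26.3% for T and NK genes (5 of 19). Among called regions, set 2 held 2 of 12 in the myeloid class, 3 of 9 in the B cell class, 0 of 15 in the T and NK class and 0 of 5 among the shared genes. Of all called regions of the whole table, 8.46% were in set 2. The B cell count comes from *MS4A1* and *EBF1* alone, and 2 of its 3 regions are the close pair inside *EBF1*. Without the members known in cells outside the immune system, the share over all listed regions was 25.0% for myeloid genes (5 of 20), 15.0% for B cell genes (3 of 20) and 10.5% for T and NK genes (4 of 38), so that myeloid and B cell genes changed places. No difference between the classes was tested, since regions of 1 gene are not replicates.

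**Figure D3:**
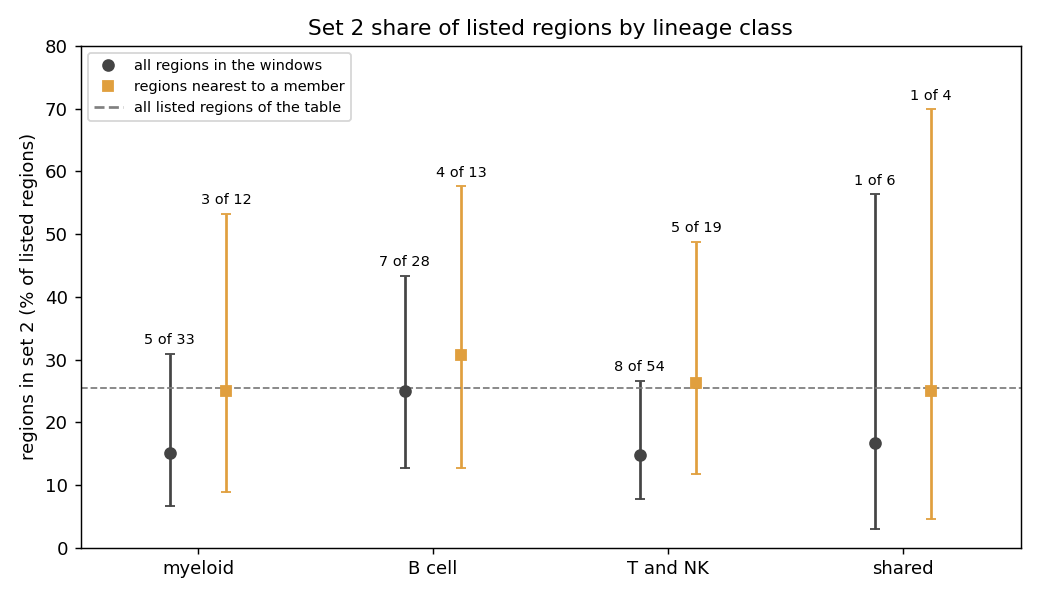
Share of listed regions that are in set 2, by lineage class, for all regions in the windows (circles) and for those with a member as the nearest protein-coding gene (squares), with 95% Wilson intervals and the counts above; the dashed line is the share among all listed regions (25.5%). All 8 intervals overlap each other and include the dashed line.

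Factor genes and receptor genes were also set side by side, a grouping chosen after their values were seen. The 13 placed transcription factor genes and the 22 other placed members cover windows of 2.47 Mb each. A member was the nearest gene for 31 of 48 regions (64.6%) at the factor genes and for 17 of 73 (23.3%) at the others. Over all protein-coding genes the gene was the nearest in 32.2% of set 1 pairs and 53.0% of set 2 pairs. The 2 groups were not matched for gene length. *EBF1*, *PAX5* and *LEF1*, with windows of 508, 279 and 223 kb, held 7, 4 and 4 of the 31 regions. Called regions nearest to a member numbered 11 at 6 of the 13 factor genes and 7 at 6 of the 22 other genes. Of all protein-coding genes, 25.8% had a called region to which they were the nearest gene. In set 2 were 3 of the 11 regions and 1 of the 7, against 8.46% of all called regions. The 3 are the region inside *SPI1* and the close pair inside *EBF1*. No difference between the 2 groups was tested.

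Other genes of the same pathways had called regions mostly in set 1, which holds 91.5% of the called regions of the whole table. Of 18 placed genes of T cell receptor signalling, 7 had a called set 1 region and none a called set 2 region. The smallest set 1 p values belonged to *THEMIS*, a thymocyte signalling protein (fold change of 1.94 per the authors' deposited table, FDR = 0.00011), and to a region shared by the co-receptor genes *CTLA4* and *ICOS* (2.45, FDR = 0.000403).

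Of 19 placed genes of B cell receptor signalling, 13 had a called set 1 region and 1 a called set 2 region. *BLK*, a kinase of the B cell receptor, led set 1 with a region inside the gene (fold change of 2.32 per the authors' deposited table, FDR = 9.29e-07). Next was a region inside *POU2F2*, a factor of immunoglobulin gene expression (1.94 per the authors' deposited table, FDR = 1.33e-05). The third, for *XBP1*, a factor of secretory cells that the secreting epithelium also uses, lies 35628 bp outside it and is nearest to *HSCB* (3.87 per the authors' deposited table, FDR = 9.6e-05). *BACH2*, a repressor of plasma cell fate, had a called region of each set, the set 2 one inside the gene (1.76 per the authors' deposited table, FDR = 0.000327).

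In the list of myeloid function, 12 of 26 placed genes had a called set 1 region and 1 a called set 2 region. The smallest p belonged to a region 19612 bp outside *FCER1G*, the signalling chain of Fc receptors, and nearest to *ADAMTS4* (2.47 per the authors' deposited table, FDR = 2.23e-20). *CSF1*, the ligand of *CSF1R*, had a set 1 region inside the gene with a fold change of 3.56 per the authors' deposited table (FDR = 2.55e-17). At the endotoxin co-receptor gene *CD14* a set 1 region 80 bp outside the gene had 2.06 per the authors' deposited table (FDR = 0.0324), and a set 2 region 46478 bp away had 3.12 (FDR = 0.0414). The NK and cytotoxic list had called regions at 7 of 14 placed genes, all in set 1. The regions with the smallest p lie 22942 bp from the protease gene *CTSW* (2.11 per the authors' deposited table, FDR = 2.57e-05) and 48280 bp from the granzyme gene *GZMK* (4.26, FDR = 0.000293), each nearest to another gene. *HAVCR2*, an inhibitory receptor, had one inside the gene (3.11 per the authors' deposited table, FDR = 0.00178).

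Antigen presentation genes had a called set 1 region at 12 of 15, and a called set 2 region at 2. *TAP1* and *TAP2* were counted for the same region. At *RFX5*, *TAP1*, *BATF3*, *CIITA*, *ZBTB46*, *CD74* and *FLT3* the set 1 region with the smallest p was nearest to another gene. At *TAP2*, *B2M*, *CD80*, *CD86* and *XCR1* it was nearest to the gene itself. In set 1 the smallest p belonged to *RFX5*, a factor of class II genes, with a region 34340 bp outside it and nearest to *SELENBP1* (1.61 per the authors' deposited table, FDR = 9.6e-05). The T cell co-stimulators *CD80* and *CD86* had set 1 regions inside the genes, with fold changes of 2.54 and 4.20 per the authors' deposited table. *CD80* also had a set 2 region nearest to *PLA1A* (3.61 per the authors' deposited table, FDR = 0.049). *CD83*, a marker of mature dendritic cells, had a set 2 region 49178 bp away with a fold change of 7.75 per the authors' deposited table (FDR = 0.00172). Beside all these counts stand 48.9% of all protein-coding genes with a called set 1 region and 5.06% with a called set 2 region.

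The labelled cell type was looked at with marker genes of mammary epithelium (luminal and basal) and of other cells. A called region lay at 10 of 10 luminal, 4 of 8 basal, 2 of 8 fibroblast, 6 of 8 endothelial and 6 of 7 adipocyte genes, against 51.4% of all protein-coding genes. Called set 2 regions lay at 1 luminal, 0 basal, 0 fibroblast, 3 endothelial and 1 adipocyte gene, against 5.06% of all protein-coding genes. Only differing regions are listed, so the table does not show which of these genes, or of the immune genes, were open in both periods, and whether immune cells were among the nuclei was not tested.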

How the data were processed

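The series' ATAC-seq libraries (3 dry period, replicates 1, 2 and 3; 3 lactation period, replicates 1, 2 and 5) are represented by 1 table of differing regions. Per the submitters' processing notes, Bowtie2 2.2.5 and MACS2 were used, with no role given. The caller of the regions, the build, any Tn5 shift and any removal of duplicates are not given in the sources used. Per the file headers, the authors deposited for each region a width (another unit, bp), a signal value (a score, equal to 32.0 times the fold change in set 1 and 20.4 times in set 2, not used), a fold change (a linear ratio, at least 1.18), a p-value (all under 0.001) and a Benjamini-Hochberg FDR (a q-value). All are values of the whole comparison. Sets 1 and 2 follow the prefixes in the deposited region names.

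Gene positions came from the RefSeq table of assembly ARS1.2, without strand, exons or sequence. Region centres lay within 1000 bp of gene ends most often for their own chromosome's genes on 29 of 29 chromosomes. The 736 regions on other sequences were not assigned. The nearest gene is the protein-coding gene closest to a region's centre. Of 37 members, 35 matched. The members, lists and classes were chosen with earlier results of these data known. Regions called at an FDR under 0.05 are the authors' calls; no test across libraries was possible. For each member the region with the smallest p is described, with position and p where it was called; up to 3 genes per further list and set were eligible by smallest p, and of these the text names some, with the set 1 regions of *CD14*, *CD80* and *CD86* chosen after their values were seen. The closest region outside the window (*CCR7*, 50204 bp, set 1, fold change of 1.83 per the authors' deposited table, FDR = 8.58e-05) and the last inside it (*CD3D*, 49514 bp, 2.20, FDR = 0.226) show where the window ends. Promoter sequences and motif words, which the plan named, were not analysed here. Analyses used Python 3.11.15, pandas 2.3.3 and SciPy 1.17.1, and the window search was tested on simulated data. One gene of the T cell receptor signalling list is not reported here and is left out of that list's counts.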

Additional observations from a re-analysis of the deposited data

How the results depend on the processing

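No paired analysis was possible because the table holds no value per library; leaving out single libraries could not be done for the same reason. The 121 listed regions became 53 with a window of 10000 bp, 223 with 100000 bp, 48 when a member had to be the nearest gene, 41 at an FDR under 0.05 and 47 at a p under 1e-04. The 41 called regions became 20, 76 and 18 under the first 3 of these, 17 at an FDR under 0.01 and 27 with a fold change of at least 2. The 16 members with a called region became 27 with a window of 100000 bp. The set 2 share of 17.4% was 27.1% when a member had to be the nearest gene. For T and NK genes, 14.8% became 27.8% with a window of 10000 bp, 0% at an FDR under 0.05 and 0% at a p under 1e-04; for the shared genes 16.7% became 0% at an FDR under 0.05. These settings keep fewer or more regions by construction. Of 56 alternatives, 40 stayed within 1.5 times the count or within the interval of the share. Moving *SPI1*, *IRF8* and *RUNX3* to the shared genes gave set 2 shares of 12.5% (myeloid) and 15.2% (T and NK). Leaving out members known in other cells gave 25.0% (myeloid), 15.0% (B cell) and 10.5% (T and NK), so the B cell share fell below the myeloid share there and the order of the classes is not fixed. Read depth limits which regions could be listed, and it is unknown.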

Other observations

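Listed regions of both sets stood in the same window at 9 members, while 17 members had set 1 regions only and 4 had set 2 regions only. The 4 with set 2 regions only were *MS4A1*, *BCL11B*, *NKG7* and *IRF4*. At *SPI1*, *EBF1*, *CSF1R*, *CCR7* and *TCF7* a set 2 region lay inside the gene or next to its end, and the same window held set 1 regions. Of these set 2 regions, that inside *SPI1* and the pair inside *EBF1* were called at an FDR under 0.05, and those at *CSF1R*, *CCR7*, *TCF7* and just outside *EBF1* were not. Called set 1 regions also lay inside *EBF1* and *CSF1R* (FDR = 0.0231 and 0.0474 per the authors' deposited table). *PAX5* and *RUNX3* went the other way, with set 1 regions inside the gene and the set 2 region outside it. At *CSF3R* and *PRF1* the regions of both sets were outside the gene.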
